A study of Mus musculus with 18 samples.

Results

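Label-retaining cells of the mouse intestine were compared with the midpoint between 2 other cell populations sorted from the same animals. For each of 6 mice and each of 16358 genes, the log2 level in label-retaining cells (YFP-LRC) had subtracted from it the mean of the log2 levels in YFP-negative cells of the same gate (LCC) and in Paneth cells. This gave 6 differences per gene, which used all 18 of the 18 arrays in the series. A value of 0 places YFP-LRC halfway between LCC and Paneth on the log2 scale, a positive value places it above the midpoint, and a gene far above or below may still lie between the populations. No measured value chose the genes.

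The mice were females of the H2B-YFP strain, in which the Cyp1a1 promoter drives a histone H2B fused to yellow fluorescent protein, and they were 99 to 109 days old. All 3 populations came from mice given βNF (beta-naphthoflavone, an inducer of that promoter) and were sorted 10 days later, so no uninduced or non-transgenic group enters the comparison. YFP-LRC were gated as CD24-positive, UEA-1-negative and YFP-positive. LCC were CD24-positive and carried neither UEA-1 nor YFP, and Paneth cells were positive for CD24 and for the lectin UEA-1. Each array held RNA from 30000 cells of 1 mouse, with 8 ng of RNA amplified before hybridisation to Mouse Exon 1.0 ST arrays. The litter label of the sixth YFP-LRC array has 2 digits exchanged relative to the LCC and Paneth arrays of the same number. Calling these 3 arrays mouse 6 rests on the replicate number and the age, and results without that number are given below.

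Cells that divide dilute a histone label with each division, so cells that still carry it after a chase have divided rarely. In the crypt of the small intestine, Lgr5-positive stem cells at the base give rise to absorptive cells and, through Atoh1, to secretory cells. The secretory cells include Paneth cells, which release antimicrobial proteins, goblet cells, which release mucus, and enteroendocrine cells, which release hormones and are specified by Neurog3. Tuft cells are a further, chemosensory type of the epithelium.

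The arrays differed in their correlation with the other arrays, most of which held another population, and in their spread. Neither measures array quality directly. Correlated with every other array, an array had a median r of 0.916 to 0.950 for YFP-LRC, 0.825 to 0.938 for LCC and 0.929 to 0.947 for Paneth, over genes, and the median over genes of the standard deviation (SD) within a population was 0.288 for YFP-LRC, 0.371 for LCC and 0.283 for Paneth. The mean over 15 Paneth cell genes was 9.83 to 10.72 on YFP-LRC arrays, 9.22 to 10.08 on LCC arrays and 10.62 to 11.26 on Paneth arrays, so the Paneth arrays lay above all LCC arrays. Mptx1, a mucosal pentraxin of Paneth cells, averaged 7.89 ± 0.58 in YFP-LRC, 7.72 ± 0.73 in LCC and 10.17 ± 0.64 in Paneth. Not every marker separated them so far. Lyz1, the lysozyme of Paneth cells, averaged 13.13 ± 0.15 in YFP-LRC, 13.09 ± 0.19 in LCC and 13.43 ± 0.16 in Paneth (SD, n = 6 each). Lgr5 was highest in the Paneth gate, at 8.57 ± 0.25 in YFP-LRC, 6.96 ± 0.47 in LCC and 9.23 ± 0.27 in Paneth. The tuft cell marker Dclk1 was also highest there, at 9.53 ± 0.32 in YFP-LRC, 8.91 ± 0.56 in LCC and 10.25 ± 0.45 in Paneth. The mean over 21 tuft cell genes was 7.43 to 8.12 on YFP-LRC arrays, 7.31 to 7.68 on LCC arrays and 8.14 to 8.94 on Paneth arrays.

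YFP-LRC departed from the midpoint at 5 genes of 16358 (0.0306%) at an adjusted p under 0.05. With the mean in place of the median over probe sets, 113 genes were called, and among the 8179 genes above the median level 57 were. Gip and Glce were higher (2 genes, 0.0122%), and Spink1, Cd300lf and Sp100 were lower (3 genes, 0.0183%). At an unadjusted p under 0.05 there were 1746 genes above (10.7%) and 638 below (3.9%) the midpoint. The median difference over all genes was 0.03 (quartiles -0.10 and 0.18), with a median standard error of 0.14, and the smallest called difference was 0.87. Differences reached 1.54 above and -1.48 below the midpoint, and 6 genes lay at least 2-fold above it and 7 at least 2-fold below it.

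Gip encodes glucose-dependent insulinotropic polypeptide, the incretin hormone of duodenal K cells, and it stood furthest above the midpoint. Its level was 12.36, 12.40, 12.52, 12.08, 12.24 and 12.17 in YFP-LRC of mice 1 to 6. In LCC it was 11.15, 11.69, 11.98, 11.56, 12.24 and 11.90, and in Paneth cells 10.31, 9.51, 9.69, 9.40, 9.14 and 10.43. The ranges of YFP-LRC and LCC overlapped, and in mouse 5 the values agreed to the digits given, while every Paneth array lay below every YFP-LRC array. Gip was 1.54 ± 0.13 above the midpoint (standard error, n = 6 mice, adjusted p = 0.00247), a 2.92-fold difference, and higher in 6 of 6 mice. Its 6 differences were 1.62, 1.8, 1.68, 1.6, 1.55 and 1.00, the last from mouse 6. The difference was positive at 7 of 7 probe sets. Against each population alone it was 0.54 ± 0.17 above LCC (adjusted p = 0.0904) and 2.55 ± 0.19 above Paneth (adjusted p = 0.000292). Whether more cells of a type or more RNA per cell underlie a difference in sorted bulk samples cannot be told apart.

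Promoter sequence is shown for Gip and Cd300lf, the called genes with the largest differences from Paneth in either direction. RefSeq, on build GRCm38.p6, gives 250 bases before and 50 after the annotated start, read 5′ to 3′ on the gene's strand. Capitals in the Gip promoter mark AGATAA, the GATA factor motif, and in the Cd300lf promoter GAGGAA or its reverse complement TTCCTC, the core motif of PU.1.
Gip promoter, chr11:96024295-96024594, plus strand: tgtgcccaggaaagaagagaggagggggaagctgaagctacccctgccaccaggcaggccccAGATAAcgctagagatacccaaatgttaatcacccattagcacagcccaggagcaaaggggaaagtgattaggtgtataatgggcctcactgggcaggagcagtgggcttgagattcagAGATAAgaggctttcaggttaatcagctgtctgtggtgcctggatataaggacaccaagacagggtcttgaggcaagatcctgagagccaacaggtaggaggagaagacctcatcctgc
Cd300lf promoter, chr11:115133943-115134242, minus strand: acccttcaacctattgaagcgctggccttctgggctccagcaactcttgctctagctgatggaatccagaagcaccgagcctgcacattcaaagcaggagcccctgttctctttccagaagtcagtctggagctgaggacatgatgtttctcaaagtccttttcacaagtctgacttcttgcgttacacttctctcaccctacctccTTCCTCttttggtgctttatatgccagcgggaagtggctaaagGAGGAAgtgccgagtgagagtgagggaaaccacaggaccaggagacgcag
The Gip window held 2 AGATAA matches, beginning 188 and 69 bases before the start. AGATAA occurs on either strand in 11.2% of 32851 mouse promoter windows of this length. The Cd300lf window held 2 matches to the PU.1 core, which occurs in 28.3% of windows, with first bases 43 bases before the start and at base 1 from it. The E-box CAGATG (17.2% of windows) and the interferon-stimulated response element core (3.44%) were also searched on both strands. Neither was found in the Gip or Cd300lf window, and the Glce window held 1 PU.1 core. The 2 Sp100 start windows overlap and shared 1 CAGATG site. No window of Spink1, the other called gene, was searched. These matches describe letters in the window and are not evidence of binding.

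Glce encodes the enzyme that converts glucuronic acid to iduronic acid in heparan sulfate, and it was the other gene called above the midpoint. In YFP-LRC its level was 6.94 at the lowest, 7.52 at the median and 7.97 at the highest. In LCC the corresponding values were 5.19, 6.0 and 6.87, and in Paneth cells 6.6, 7.02 and 7.54. Every YFP-LRC array lay above every LCC array, while YFP-LRC and Paneth overlapped across mice, though YFP-LRC was above both populations in 6 of 6 mice. The difference was 0.96 ± 0.11 (adjusted p = 0.0192), 1.95-fold, and positive in 5 of 6 probe sets. It was 1.48 ± 0.18 above LCC (adjusted p = 0.0225) and 0.45 ± 0.14 above Paneth (adjusted p = 0.293). With the mean over probe sets the midpoint difference was 0.61 (adjusted p = 0.0577).

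Spink1 encodes a serine protease inhibitor that blocks trypsin, and it was below both populations. Its level in YFP-LRC ran from 8.92 to 10.50 with a median of 10.10, in LCC from 9.53 to 11.74 with a median of 11.03, and in Paneth cells from 10.24 to 12.24 with a median of 11.72. The ranges overlapped, but within each of 6 mice YFP-LRC was the lowest of the 3. The difference was -1.21 ± 0.13 (adjusted p = 0.0135), 2.31-fold lower, and negative at 5 of 5 probe sets. It was -0.88 ± 0.14 against LCC (adjusted p = 0.0244) and -1.54 ± 0.22 against Paneth (adjusted p = 0.0118).

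Sp100, a component of nuclear bodies that interferon induces, was also called below both populations, with the LCC side close to the threshold. In YFP-LRC its level was 6.29, 6.16, 5.05, 6.36, 5.97 and 6.23 in mice 1 to 6, in LCC 7.67, 6.91, 5.15, 7.49, 6.57 and 6.71, and in Paneth cells 7.13, 7.24, 6.78, 6.73, 7.17 and 6.96. Mouse 3 was low in YFP-LRC and LCC alike. The difference from the midpoint was -0.87 ± 0.11 (adjusted p = 0.0347), 1.82-fold lower, and negative at 13 of 15 probe sets. It was -0.74 ± 0.18 against LCC (adjusted p = 0.0495) and -0.99 ± 0.17 against Paneth (adjusted p = 0.0345). The call off the midpoint was lost without each mouse in turn (adjusted p from 0.0802 to 0.148), with all 18 arrays and the replicate block (adjusted p = 0.151) and with the mean over probe sets (adjusted p = 0.0547). Mouse chromosome 1 also carries multicopy sequence related to Sp100, and whether these probe sets read it was not tested.

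Cd300lf encodes a receptor of the CD300 family found on myeloid and tuft cells. Its level ran from 6.6 to 7.73 in YFP-LRC, from 6.92 to 7.66 in LCC and from 8.31 to 9.76 in Paneth cells, with medians of 7.08, 7.09 and 9.31. YFP-LRC and LCC overlapped, and all Paneth arrays lay above both. The difference was -1.06 ± 0.11 from the midpoint (adjusted p = 0.0135), 2.08-fold lower, and negative at 12 of 12 probe sets. It was -0.09 ± 0.15 against LCC (adjusted p = 0.737) and -2.02 ± 0.15 against Paneth (adjusted p = 0.000292). Ptprc and Plek, both of the myeloid list below, had the same order, with differences of -1.32 ± 0.21 and -1.05 ± 0.19 from the midpoint. Matk, of the tuft cell list, also had this order, at -0.62 ± 0.11. Ptgs1 of that list was at -0.55 ± 0.12 and the tuft cell marker Dclk1 at -0.05 ± 0.14. The myeloid list had a median of -0.4 against LCC and -0.1 against Paneth. The tuft cell list had a median of 0.32 against LCC and -0.72 against Paneth. The part of either cell type in the Cd300lf difference was not tested.

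**Figure D1:**
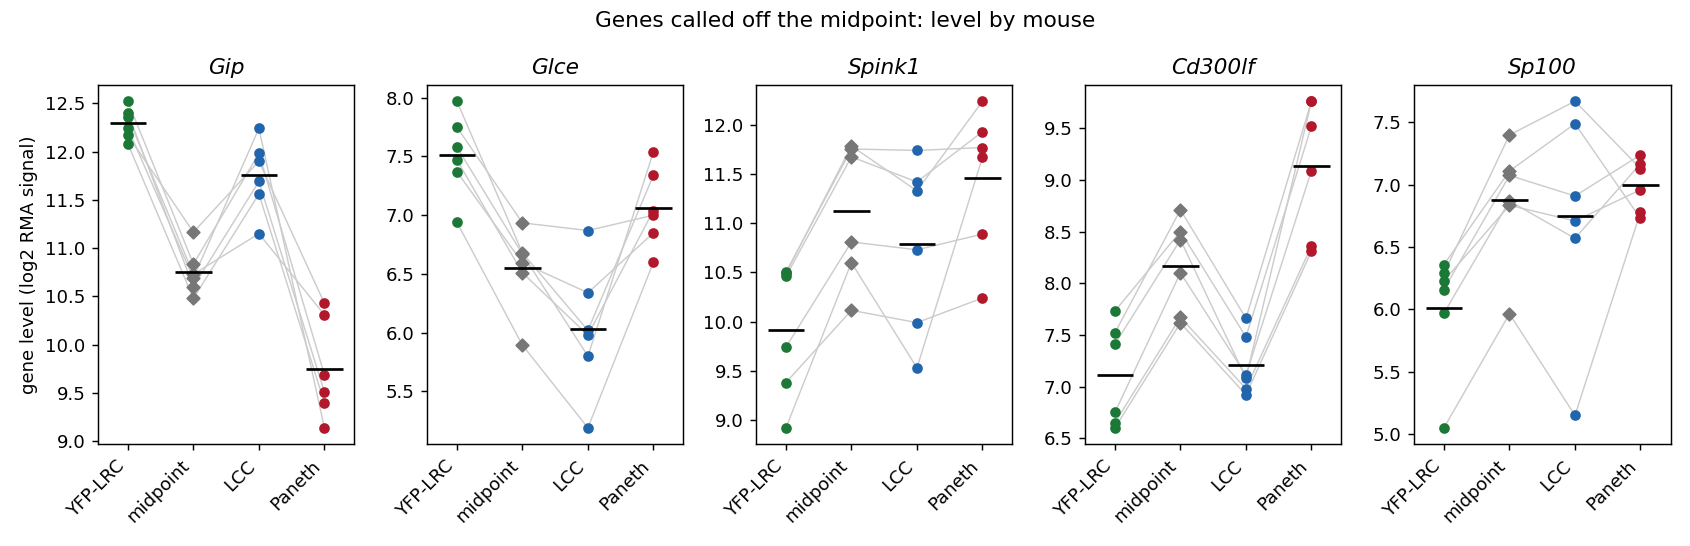
Level (log2 RMA signal) of the 5 genes called off the midpoint, by mouse, in YFP-LRC, at the midpoint of LCC and Paneth, in LCC and in Paneth cells. Grey lines join the values of 1 mouse, black bars are means of 6 mice, and the YFP-LRC values of Gip lie between 12.08 and 12.52 while those of Paneth lie between 9.14 and 10.43.

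Leaving out single mice changed which genes were called. Gip was called without each of the mice in turn, with adjusted p between 0.00139 and 0.0307. The number of genes called was 1 without mouse 1 and without mouse 4, 2 without mouse 2 and without mouse 3, 5 without mouse 5, and 3 without mouse 6. Spink1 and Cd300lf were called only without mouse 5 and without mouse 6, Glce only without mouse 5, and Sp100 in none of these fits. With mice 1 to 4 alone, Gip was the only gene called (adjusted p = 0.0089), and with mice 1 and 4, whose LCC arrays correlated best with the others, no gene passed, 1218 did so at an unadjusted p under 0.05, and Gip was 1.61 above the midpoint (adjusted p = 0.45).

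Genes outside both populations are a narrower set. YFP-LRC was called above both LCC and Paneth at 0 genes (0%) by limma, while 133 genes (0.813%) passed in both at an unadjusted p under 0.05. With the mean over probe sets 8 genes were called above both, Gip, Fabp5, Etv1, Rfx6, Isl1, Gnao1, Cadps and Ncam2, and each fit of all 18 arrays called 2. It was called below both at 2 genes (0.0122%), Spink1 and Sp100, with 72 (0.44%) at an unadjusted p. Without mouse 1 there were again 2 genes, and 0 without any of the other mice and in the fit of all 18 arrays without the replicate block. Against LCC alone, 717 genes (4.38%) were called higher and 86 (0.526%) lower, and against Paneth alone 11 (0.0672%) higher and 75 (0.458%) lower. In 6 of 6 mice, 49 genes (0.3%) lay above both and 28 (0.171%) below both.

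The 5 genes furthest above both in every mouse, uncalled with the median over probe sets, were Mllt11, Ncam2, Etv1, Tpsg1 and Ahsa1, with midpoint differences from 0.65 to 0.94 and adjusted p from 0.0804 to 0.126. Etv1 encodes an ETS-family transcription factor of several neuronal and endocrine lineages, and Ncam2 a neural cell adhesion molecule. Etv1 was 0.66 ± 0.17 above LCC (adjusted p = 0.0579) and 1.21 ± 0.19 above Paneth (adjusted p = 0.0152). Off the midpoint, the mean over probe sets gave an adjusted p of 0.0237 for Etv1 and 0.0479 for Ncam2. Tpsg1 encodes a membrane-bound tryptase, and Ahsa1 an activator of the Hsp90 chaperone. The genes furthest below both in every mouse were Spink1 and 4 uncalled genes, Cyct, F630111L10Rik, Armcx5 and Rp2, whose differences ran from -1.04 to -0.76. Armcx5 rests on 1 probe set, and Cyct and F630111L10Rik averaged 3.03 in YFP-LRC, well below the median gene level of 6.54.

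**Figure D2:**
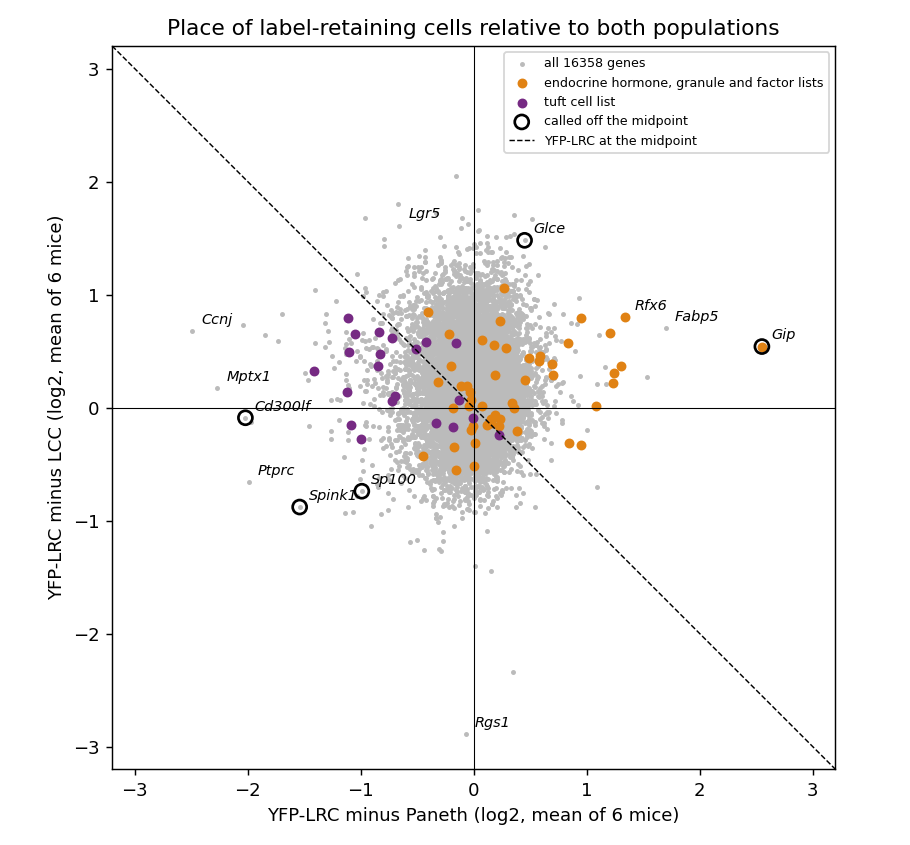
Difference of YFP-LRC from Paneth (horizontal axis, log2) against its difference from LCC (vertical axis, log2), as means of 6 mice, for 16358 genes. On the dashed line YFP-LRC equals the midpoint. Gip lies 2.55 above Paneth and 0.54 above LCC, and Spink1 lies 1.54 below Paneth and 0.88 below LCC.

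Genes that differed between the reference populations show where YFP-LRC sat between them. Of 704 genes at least 2-fold higher in Paneth than in LCC, YFP-LRC lay between and nearer Paneth for 504 (71.6%) and nearer LCC for 133 (18.9%), above both for 61 (8.66%) and below both for 6 (0.852%). Their median midpoint difference was 0.27. Of 34 genes at least 2-fold higher in LCC than in Paneth, 23 (67.6%) lay between and nearer Paneth, and the median was -0.19. These genes were chosen by the values that make the midpoint, so the counts are a description with no test. With mice 1 and 4 alone, the first class held 188 genes and 52.7% of them lay nearer Paneth. That class also shrank from 704 to 363 genes after a second quantile normalization and to 466 with arrays centred on their median. The median gene value was 6.538 to 6.6 on YFP-LRC arrays, 6.398 to 6.571 on LCC arrays and 6.534 to 6.652 on Paneth arrays. The size of the class thus depends on the normalization.

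On a scale where LCC is 0 and Paneth is 1, Lgr5 lay at 0.71 and Muc2, the gel-forming mucin of goblet cells, at 0.82. Ern2, an endoplasmic reticulum stress sensor of goblet cells, lay at 1.02, Glce at 1.44 and Dclk1 at 0.46. Other Paneth-high genes lay at the LCC end. Mptx1 lay at 0.07, Ptgs1, the cyclooxygenase of tuft cells, at 0.19, and the cyclin gene Ccnj at 0.21. Cd300lf lay at -0.05 and Ptprc, which encodes the leukocyte antigen CD45, at -0.50. For the LCC-high Gip the position was -0.27 and for Chgb -0.22, on the far side of LCC from Paneth.

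The gene lists that follow were counted by members above or below the midpoint in 6 of 6 mice, against 5.71% of all genes above and 2.93% below. The median difference was 0.10 over the 8179 genes above the median level, against 0.03 over all genes. Some lists are mostly such genes in YFP-LRC, as 23 of 24 endoplasmic reticulum stress and 15 of 15 immediate early genes. The all-gene shares and median are thus not a background matched for level. Gip was the only list member called. Lists share genes, and members of 1 list are not independent.

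Enteroendocrine genes were described by their roles, in counts without a test. Of 16 hormone genes 5 were above it in every mouse and 0 below, with a median of 0.25. Of 15 granin and prohormone processing genes 5 were above and 0 below (median 0.19), and of 19 transcription factors 4 were above and 0 below (median 0.08). The medians were 0.08 against LCC and 0.23 against Paneth for hormone genes, and 0.19 and 0.29 for granin and processing genes. For transcription factors they were 0.24 and 0.15. Beside Gip, Tph1, the enzyme of serotonin synthesis, was 0.70 ± 0.14 above the midpoint (adjusted p = 0.0946), and Ghrl, which encodes ghrelin, 0.49 ± 0.11 (adjusted p = 0.114). Against LCC alone Tph1 was 0.57 ± 0.19 higher (adjusted p = 0.0982) and Ghrl 0.29 ± 0.18 higher (adjusted p = 0.341).

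The granins are acidic proteins of hormone granules. Chgb averaged 12.33 ± 0.25 in YFP-LRC, 12.11 ± 0.35 in LCC and 11.10 ± 0.37 in Paneth cells (SD, n = 6), a midpoint difference of 0.73 ± 0.11 (adjusted p = 0.0804, and 0.0116 with the mean over probe sets). It was 0.22 ± 0.14 above LCC (adjusted p = 0.357) and 1.23 ± 0.14 above Paneth (adjusted p = 0.00446). Chga was 0.84 ± 0.17 above the midpoint (adjusted p = 0.0946), with 1.81 in mouse 3 and 0.49 to 0.99 in the others. It was 0.37 ± 0.18 above LCC (adjusted p = 0.227) and 1.3 ± 0.21 above Paneth (adjusted p = 0.0195). Cpe, a carboxypeptidase that trims prohormones, was 0.77 ± 0.15 above the midpoint (adjusted p = 0.0834). Against LCC alone Cpe was 0.31 ± 0.25 higher (adjusted p = 0.484), and against Paneth 1.24 ± 0.24 higher (adjusted p = 0.0516).

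Among the endocrine transcription factors, Rfx6, which acts in endocrine differentiation of gut and pancreas, averaged 6.70 ± 0.53 in YFP-LRC, 5.90 ± 0.45 in LCC and 5.36 ± 0.37 in Paneth cells. Its difference was 1.07 ± 0.18 (adjusted p = 0.0804), with 0.11 in mouse 3 and 0.92 to 1.64 in the other mice, and it was called without mouse 3, with all 18 arrays and the replicate block, and with the mean over probe sets (adjusted p = 0.00961). Neurod1, which acts after Neurog3 in the same lineage, was 0.54 ± 0.11 above the midpoint (adjusted p = 0.0946). Against LCC alone Neurod1 was 0.39 ± 0.2 higher (adjusted p = 0.264), and against Paneth 0.69 ± 0.15 higher (adjusted p = 0.0887). Neurog3 itself was 0.03 ± 0.13 from the midpoint (adjusted p = 0.95), above in 3 of 6 mice.

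Channels, exocytosis and neuronal-type genes of endocrine cells were counted in the same way. Of 16 nutrient-sensing receptor and channel genes 3 were above the midpoint in every mouse and 0 below. Cacna1a, a calcium channel subunit, was 0.55 ± 0.11 above (adjusted p = 0.0834) and Kcnj3, an inwardly rectifying potassium channel, 0.88 ± 0.21 (adjusted p = 0.126). Of 24 regulated exocytosis genes 5 were above and 1 below, with Cadps, a factor for dense-core vesicle release, at 0.57 ± 0.12 (adjusted p = 0.0946). Of 15 neurofilament and neuronal-type genes 3 were above and 1 below, with Nefm at 0.90 ± 0.17 (adjusted p = 0.0834) and Map1b at 0.64 ± 0.14 (adjusted p = 0.11). Nefm was 0.27 ± 0.22 above LCC (adjusted p = 0.466) and 1.53 ± 0.17 above Paneth (adjusted p = 0.00446).

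**Figure D3:**
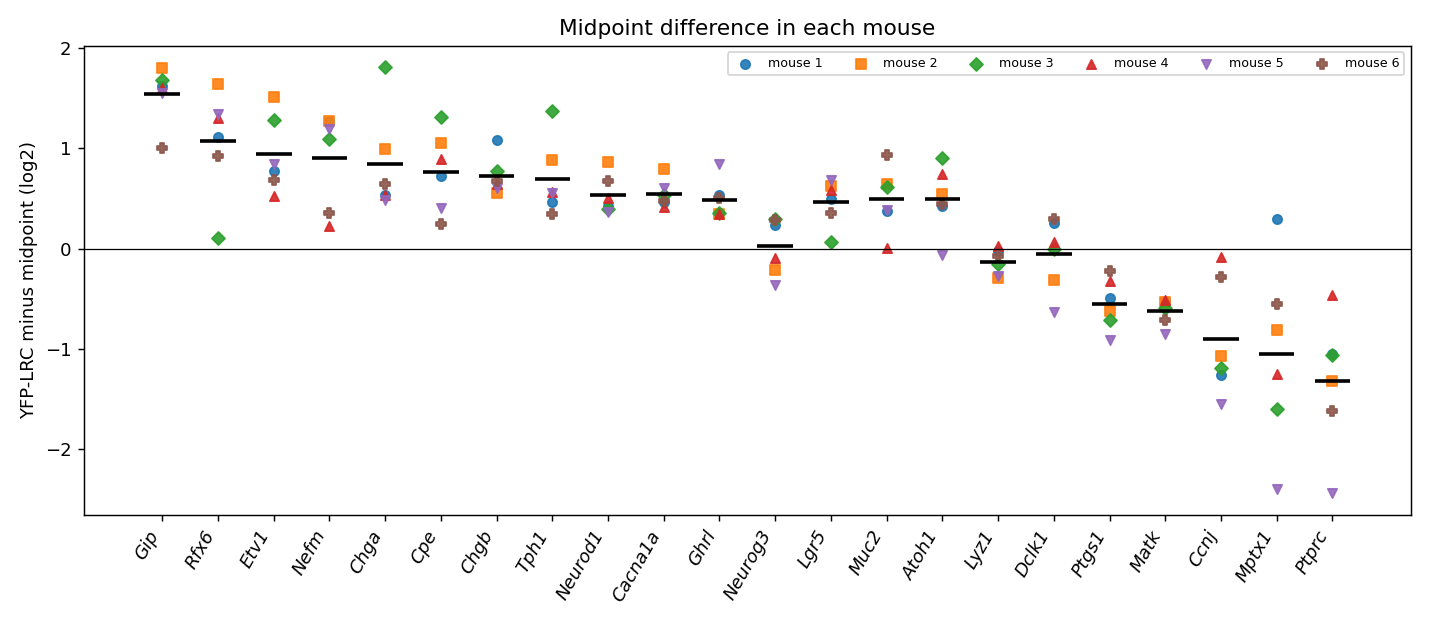
Difference of YFP-LRC from the midpoint (log2) in each of 6 mice for selected genes, with a bar at the mean. Gip was between 1.0 and 1.8 in all mice, Neurog3 lay on both sides of 0, and Ptprc was between -2.44 and -0.46.

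Crypt base, Wnt target and mitotic genes followed, again by count alone. Of 20 crypt base columnar stem cell genes 5 were above it in every mouse and 1 below (median 0.28), and of 17 Wnt targets 5 were above and 1 below (median 0.19). The median differences from LCC and from Paneth were 0.56 and -0.07 for the stem cell genes, and 0.42 and 0.02 for the Wnt targets. Lgr5 was 0.47 ± 0.12 above the midpoint (adjusted p = 0.131, and 0.0305 with the mean over probe sets), 1.61 ± 0.16 above LCC (adjusted p = 0.0193) and -0.66 ± 0.18 from Paneth (adjusted p = 0.213). Ccnd1, the cyclin D1 gene, was 0.69 ± 0.12 above the midpoint (adjusted p = 0.0804), and Cd44 and Rnf43, a Wnt receptor ligase, were 0.51 ± 0.11 and 0.55 ± 0.12 above.

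Of 22 genes of G2 and mitosis, 5 were above the midpoint in every mouse and 0 below, with a median of 0.34. Their medians were 0.51 against LCC and 0.14 against Paneth. Plk1, a mitotic kinase, was 0.61 ± 0.12 above (adjusted p = 0.0909), and Mki67, the proliferation marker Ki-67, 0.35 ± 0.13 (adjusted p = 0.254). The mean level of the list ran from 6.77 to 8.15 on YFP-LRC arrays, from 6.22 to 7.75 on LCC arrays and from 7.18 to 7.74 on Paneth arrays. Of 22 S phase genes 2 were above and 1 below (median 0.22), with Pola1, a DNA polymerase subunit, at 0.60 ± 0.14 and Fen1, a flap endonuclease, at -0.48 ± 0.12, a direction that 1 of its 3 probe sets shared and that the mean over probe sets turned to 0.20. The medians of the S phase list were 0.37 against LCC and 0.09 against Paneth. The cell cycle inhibitors had 0 of 7 above and 2, Cdkn1c and Cdkn2b, below in every mouse. Cdkn1c was -0.48 ± 0.12 from the midpoint (adjusted p = 0.124), below both populations in 6 of 6 mice. Cdkn2b was -0.24 ± 0.12 (adjusted p = 0.371). Cdkn2d was -0.34 ± 0.12 (adjusted p = 0.24), above the midpoint in mouse 1 and negative at 2 of 4 probe sets, and Cdkn1a was 0.14 ± 0.13 (adjusted p = 0.682).

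Goblet cell genes gave 6 of 16 above the midpoint in every mouse and 0 below, with a list median of 0.06, which becomes -0.02 after a second quantile normalization. Klk1, a kallikrein protease, was 0.95 ± 0.23 above (adjusted p = 0.124), with 2.35 in mouse 6 and 0.20 to 0.98 in the others. Muc2 was 0.50 ± 0.13 above (adjusted p = 0.15), 1.29 ± 0.20 above LCC (adjusted p = 0.0231) and -0.29 ± 0.13 from Paneth (adjusted p = 0.576). The goblet list medians were 0.54 against LCC and -0.18 against Paneth. Secretory progenitor genes had 0 of 11 above or below in every mouse, and Atoh1 was 0.50 ± 0.14 above the midpoint (adjusted p = 0.151). Atoh1 was 0.93 ± 0.18 above LCC (adjusted p = 0.0322) and 0.07 ± 0.18 above Paneth (adjusted p = 0.938). Of 24 endoplasmic reticulum stress and secretion genes 3 were above and 0 below (median 0.17), with Ern2 at 0.53 ± 0.15 and Ssr1, of the protein translocation complex, at 0.52 ± 0.15. The medians of this list were 0.61 against LCC and -0.1 against Paneth. Of 15 immediate early genes 2 were above and 0 below (median 0.33), with Atf3 at 0.55 ± 0.12 (adjusted p = 0.0998) and Egr2 at 0.70 ± 0.18 (adjusted p = 0.136). The immediate early medians were 0.46 against LCC and 0.18 against Paneth. Notch pathway genes numbered 1 above and 1 below of 22, with a median of 0.03 that becomes -0.05 after a second quantile normalization, and +4 or reserve stem cell genes 1 above and 1 below of 8.

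Tuft and Paneth cell genes had no member above the midpoint in every mouse. Of 21 tuft cell genes 0 were above the midpoint and 4 below in every mouse, with a median of -0.18, and the medians were 0.32 against LCC and -0.72 against Paneth. Matk, a kinase, was -0.62 ± 0.11 (adjusted p = 0.0834) and Ptgs1 -0.55 ± 0.12 (adjusted p = 0.11), whereas Dclk1 was -0.05 ± 0.14 (adjusted p = 0.914). Of 15 Paneth cell genes 0 were above and 2 below, with medians of 0.46 against LCC and -0.58 against Paneth. Mptx1 was -1.05 ± 0.28 (adjusted p = 0.146), negative at 3 of 5 probe sets, with 0.30 in mouse 1 and -2.40 in mouse 5. Lyz2, a lysozyme also of myeloid cells, was -0.58 ± 0.14 (adjusted p = 0.117), and Lyz1 was -0.13 ± 0.11 (adjusted p = 0.63). Ccnj averaged 7.31 ± 0.37 in YFP-LRC, 6.63 ± 0.22 in LCC and 9.80 ± 0.58 in Paneth cells and was -0.90 ± 0.19 from the midpoint (adjusted p = 0.0994). Of 17 absorptive enterocyte genes 0 were above and 2 below, Fabp1 at -0.65 ± 0.14 and Fabp2 at -0.44 ± 0.12, both fatty acid binding proteins.

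Of 9 genes of the aryl hydrocarbon receptor pathway, that of the inducer, 0 were above and 1 below in every mouse. The list holds targets together with Ahr, the receptor gene itself, and Arnt. Cyp1a1 averaged 5.46 ± 0.29 in YFP-LRC, 5.26 ± 0.41 in LCC and 5.47 ± 0.31 in Paneth cells, below the median gene level in all 3, and was 0.09 ± 0.13 from the midpoint (adjusted p = 0.803).

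Markers of cells outside the epithelium were counted last. Of 16 myeloid genes 0 were above the midpoint and 5 below in every mouse (median -0.28). The members below did not share 1 order of the populations. Ptprc, Plek and Lyz2, which is also on the Paneth cell list, averaged highest in Paneth cells (7.68, 7.57 and 7.49). Cxcl2 averaged highest in LCC (7.20). The mean level of the list was 5.82 to 5.99 on YFP-LRC arrays, 6.21 to 6.64 on LCC arrays and 6.10 to 6.32 on Paneth arrays. The members above the median gene level numbered 2 in YFP-LRC, 7 in LCC and 4 in Paneth cells. Ptprc ran from 5.17 to 6.07 in YFP-LRC, from 5.92 to 7.16 in LCC and from 6.97 to 8.06 in Paneth cells, at -1.32 ± 0.21 from the midpoint (adjusted p = 0.0804), and was called in both fits of all 18 arrays. Cxcl2, a neutrophil-attracting chemokine, was -0.78 ± 0.13 (adjusted p = 0.0804). The part of myeloid cells in the genes below the midpoint was not tested.

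Of 15 T cell genes and of 11 B and plasma cell genes, 0 were above and 0 below the midpoint in every mouse, and of 16 stromal and endothelial genes 0 were above and 1 below. T cell genes averaged 5.72 to 5.95 on YFP-LRC arrays, 5.90 to 6.13 on LCC arrays and 5.59 to 5.90 on Paneth arrays. Of 3 red blood cell genes Hbb-b1, a haemoglobin chain, was below in every mouse at -1.0 ± 0.23 (adjusted p = 0.114), with levels of 4.34 to 4.85 in YFP-LRC, 5.15 to 9.54 in LCC and 3.89 to 4.50 in Paneth cells.

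**Figure D4:**
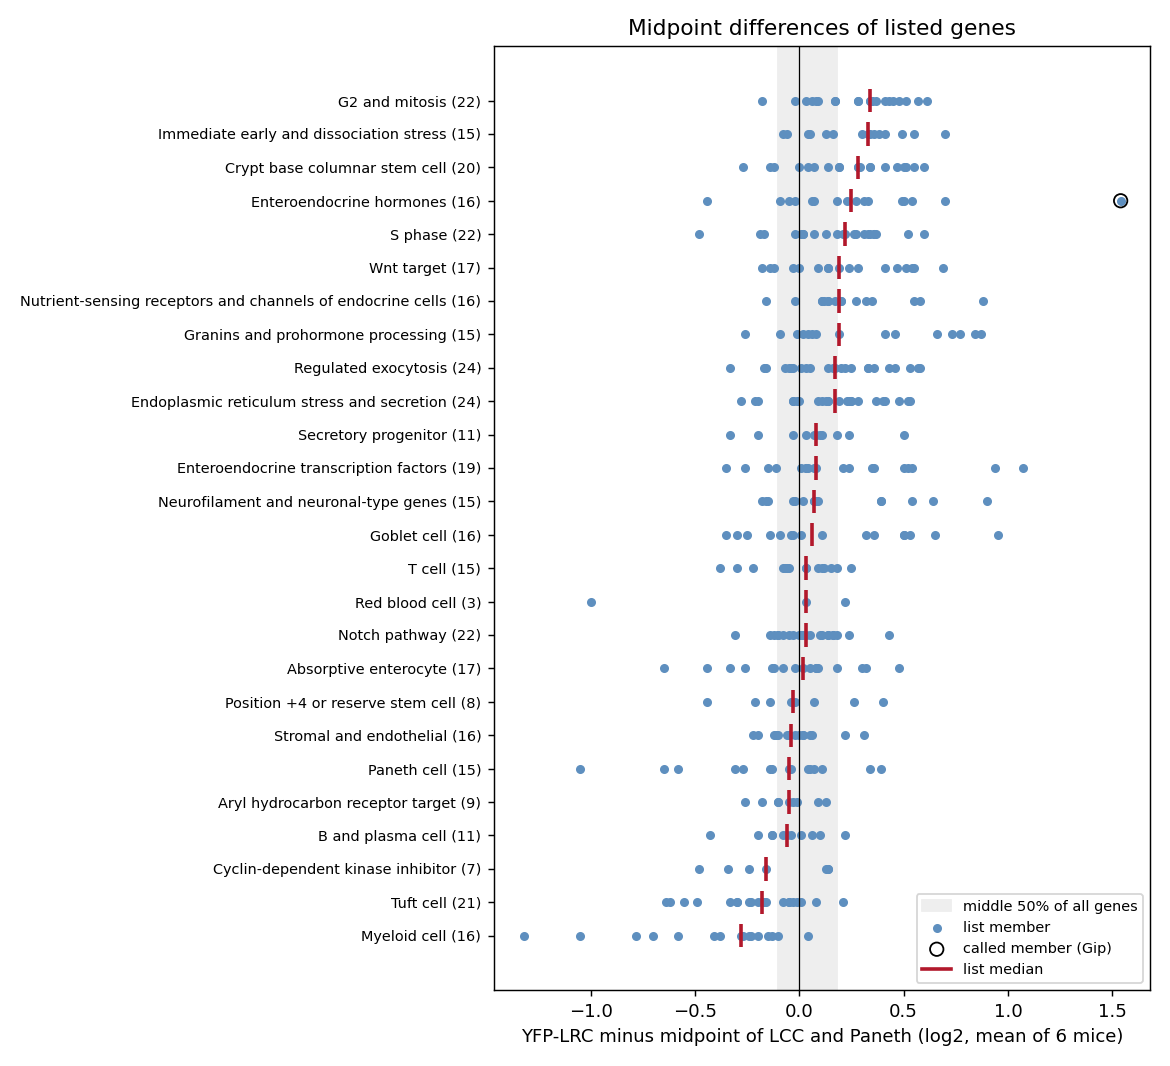
Midpoint difference (log2, mean of 6 mice) of each member of 26 gene lists, with the number measured in parentheses. Red bars are list medians, the grey band spans the middle 50% of all genes (-0.10 to 0.18), and the ring is Gip, at 1.54 the only called member.

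Cdkn2b, Isl1, Gnao1 and the following genes at least 2-fold off the midpoint were chosen after their values were seen. Fabp5, a fatty acid binding protein, averaged 7.74 in YFP-LRC, 7.04 in LCC and 6.04 in Paneth cells and was 1.20 ± 0.17 above the midpoint (adjusted p = 0.0671). Rgs1, a regulator of G protein signalling best known from lymphocytes, averaged 4.54 in YFP-LRC, 7.43 in LCC and 4.62 in Paneth cells and was -1.48 ± 0.25 from it (adjusted p = 0.0834). Plek, a protein of platelets and leukocytes, averaged 5.60 in YFP-LRC, 5.74 in LCC and 7.57 in Paneth cells and was -1.05 ± 0.19 from it (adjusted p = 0.0834). Mmgt2, Chkb-cpt1b and Cspp1 were 1.09, 1.03 and 1.03 above it, each in 5 of 6 mice, and the first 2 rest on 1 probe set each.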

How the data were processed

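RNA of 3 sorted populations from each of 6 mice was measured on 18 exon arrays. The deposited log2 values were made by the authors, per the file headers, with Affymetrix Power Tools 1.12.0 by RMA (background correction, quantile normalization of all arrays, median polish) for core probe sets on mm9. No scan date or batch was used here. A gene's value was the median over the probe sets that the platform table pairs with exactly 1 symbol (209279 of 229581; 4446 had several and 15856 none). There were 16358 such genes, at a median of 11 probe sets each. Symbols were updated through a GRCm38.p6 gene table (14190 current, 2145 by synonym, 45 unmatched). No low values were filtered.

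The 6 differences per gene were tested against 0 with limma 3.58.1 (R 4.3.3), empirical Bayes, 2-sided, Benjamini-Hochberg over all genes, and called at an adjusted p under 0.05. YFP-LRC minus LCC and YFP-LRC minus Paneth were tested likewise, and these share the YFP-LRC arrays. Errors after differences are standard errors and after means SDs. The number of arrays, 6 per population, limits the precision.

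The numbers pair arrays because the series design takes all 3 populations from each mouse. Correlations of same-numbered deviations were 0.015 to 0.406 for YFP-LRC with LCC, 0.041 to 0.175 for YFP-LRC with Paneth, and -0.114 to 0.177 for LCC with Paneth.

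The comparison, the 26 lists and the genes to name were chosen with earlier results of these data known. Named were called genes with 1 sign in all mice, the genes furthest outside both populations, called list members and 2 uncalled members per list by lowest p, and a fixed set of markers.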

Additional observations from a re-analysis of the deposited data

Results flagged for a closer look

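Of 95 sets of 6 values examined for a value far from the others, 7 held one, and chance gives about 1 in 20. The midpoint difference of Gip was 1.00 in mouse 6, with the nearest at 1.55. That of Klk1 was 2.35 in mouse 6 (nearest 0.98), that of Cdkn2d 0.15 in mouse 1 (nearest -0.34), that of Itgae, an integrin of intraepithelial lymphocytes, 0.21 in mouse 4 (nearest -0.29), and that of Gzma, a granzyme, -1.46 in mouse 2 (nearest -0.42). The Sp100 level in YFP-LRC was 5.05 in mouse 3 (nearest 5.97). The YFP-LRC array of mouse 6 had a median correlation of 0.916 with the other arrays (nearest 0.939).

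Of the 20302 probe sets without exactly 1 symbol, which no comparison above uses, 1 was called off the midpoint. It has no symbol in the platform table and averaged 5.83 in YFP-LRC, 9.39 in LCC and 7.01 in Paneth cells. Its difference was -2.37 ± 0.19 (adjusted p = 0.0181), lower in 6 of 6 mice.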

How the results depend on the processing

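The 5 called genes kept their sign under all 19 alternatives, with adjusted p from 0.000489 to 0.45 for Gip, called in 18, from 0.00702 to 0.661 for Glce (10), 0.00224 to 0.661 for Spink1 (12), 0.000649 to 0.661 for Cd300lf (11) and 0.0134 to 0.661 for Sp100 (8). Counts of genes called above and below the midpoint, 2 and 3 as reported, moved as follows. All 18 arrays with the replicate block gave 4 and 5, with 2 genes called above both populations, and without the block 3 and 1, with 2 above both and 0 below both. Of the 5 genes only Gip was still called without the block. Adjusted p there was 0.142 for Glce, 0.173 for Cd300lf, 0.3 for Spink1 and 0.353 for Sp100. The linear-scale midpoint gave 2 and 8. A point at 0.75 of the way to LCC gave 226 and 20, and to Paneth 9 and 25. The mean over probe sets gave 93 and 20, with 8 genes above both. Genes above the median level gave 44 and 13, with 4 below both, and 8 below both in every mouse. Mice 1 to 4 gave 1 and 0, and mice 1 and 4 gave 0 and 0, each with 0 below both. Second quantile normalization and array weights each gave 1 gene below both. Genes above and below both in every mouse numbered 302 and 184 for mice 1 to 4, 2045 and 2132 for mice 1 and 4, and 29 above with arrays centred on their median. Fewer mice make these counts easier to meet, and the other causes were not tested. Leaving out 1 mouse gave 1 to 3 above the midpoint, 0 to 2 below, 0 above both, 0 to 2 below both, and in every mouse 96 to 152 above both and 59 to 86 below both.

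Of the single-gene values, 1264 kept side and sign, 54 passed the threshold only under the alternative, 36 no longer did and 21 changed sign. The sign changes are of uncalled genes. With mice 1 and 4, Bmi1 was 0.07, Cdkn1a -0.09, Dclk1 0.17, Lyz1 0.01 and Tnfrsf17 -0.16. Dclk1 was 0.01 with mice 1 to 4, 0.29 at 0.75 of the way to LCC, 0 without mouse 2 and 0.07 without mouse 5, in a range of -0.12 to 0.07 with 1 mouse left out. With the mean over probe sets Fen1 was 0.20, Lyz1 0.06, Nqo1 0.02, Neurog3 -0.07 and Tnfrsf17 0. Neurog3 was -0.01 with arrays centred, -0.07 at 0.75 of the way to LCC, -0.04 after second quantile normalization, and -0.03 to 0.11 when 1 mouse was left out, with -0.01, -0.03 and -0.02 without mouse 1, 3 and 6. Lgr5 was -0.09 at 0.75 of the way to Paneth. The share of Paneth-high genes lying nearer Paneth, 71.6% of 704, was 63.1% of 363 after second quantile normalization and 67.6% of 466 with arrays centred. It was 73.7% of 426 with the mean over probe sets, 62.5% of 341 with mice 1 to 4 and 52.7% of 188 with mice 1 and 4. These alternatives were chosen after seeing the data.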
